A study of Mus musculus with 6 samples.

Results

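The erythroid, globin and heme synthesis genes of newborn liver are a list of 36 genes that red cell precursors use, set here by name as the probes whose platform gene symbol or synonym is on the list. Of these 36 genes, 34 had at least 1 named probe, with 66 probes in all among the 45281 on each array. A gene counted as measured if a probe was detected above the negative controls (detection p under 0.05) on at least 3 of the 6 arrays, and 33 genes with 59 such probes were, among 11346 measured genes. Hbb-b1, a beta-globin gene, and Ahsp, the chaperone of free alpha globin, had no probe named here, and the only probe of Epb42, a protein of the red cell membrane skeleton, was detected on 0 of 6 arrays.

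Total RNA of newborn livers was hybridised to Illumina BeadChips, with 3 arrays of Igf2 knockout mice (labelled Igf2 KO) and 3 of wild type (WT), all on a mixed 129/ c57Bl/6 background. The Igf2 protein is a growth factor of fetal life related to insulin, and the comparison asks how liver transcripts at birth differ in the knockout. How the Igf2 allele was made, and whether an array holds RNA of 1 pup or more, is not given in the labels. P-values therefore measure the spread between these arrays, which may in part be technical. The Igf2 probe had intensities of 9337, 11866 and 9676 on the knockout arrays, against 19805, 19195 and 18656 on the WT arrays. Its log2 fold change was -0.91 ± 0.11 (moderated SE, limma adjusted p = 0.0022). The signal was thus lower but not absent in the knockout, and what the probe binds there was not tested.

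Before birth the liver is the main site of red cell formation in the mouse, and at birth it still holds erythroblasts, the nucleated precursors of red cells. Erythroblasts are driven by the hormone erythropoietin and by a small circle of transcription factors around GATA1, TAL1 and KLF1. They fill with hemoglobin, whose heme is built in a chain of enzymes shared between mitochondrion and cytosol, and they assemble a spectrin skeleton under the membrane that keeps the red cell flexible. In whole liver RNA, more erythroid cells and more RNA per erythroid cell cannot be told apart.

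Transcription factor and red cell membrane genes had mostly positive differences in the knockout, and the heme enzymes were split. The adult globin probes given here did not separate the groups, but the brightest sat at or near the top of the scale, which limits what they can show. Of the 33 measured genes, 6 rose and 1 fell at an adjusted p under 0.05 in limma, where 16.7% of all genes passed in either direction. Those that rose were Gfi1b, Gata1, Add2, Sptb, Slc4a1 and Hbb-y, and Cpox fell. Over all genes 8.23% rose and 8.49% fell, and among the 33 genes 18.2% rose and 3.03% fell. The median log2 fold change was 0.17 in the set and 0.022 over all genes, and 24 of the 33 values were positive. All 3 knockout arrays lay above all 3 WT arrays for 15 genes (45.5%, against 20.8% of all genes) and below them for 1 gene (3.03%, against 18.3%), and 39.1% of all genes separated the groups in either direction.

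The number of genes that passed depended on single arrays. There were 2 higher without knockout array 1, 3 without knockout array 2, 2 without knockout array 3, 2 without WT array 1 and 3 without WT array 2, and 0 lower without knockout array 2 or 3 or WT array 1. The median log2 fold change lay between 0.14 and 0.20 over these omissions. Knockout arrays 1 and 2 also carried lung transcripts. The summed intensity of the 5 measured lung markers of 10 (Sftpc, Scgb1a1, Ager, Napsa and Sftpd) was 8090, 20960 and 681 on knockout arrays 1, 2 and 3, against 634 to 730 on the WT arrays. Sftpb, Sftpa1, Lamp3, Cldn18 and Nkx2-1 had probes detected on 2 arrays at most, with the brighter Sftpb probe at 305 and 784 on knockout arrays 1 and 2 and at -0.2 on knockout array 3. The sum on knockout array 3 lay within the WT range, but its Sftpc probe read 66.4, against 10.7, 8.4 and 1.6 on the WT arrays. Scgb1a1 (42.9, against 1, -2.6 and 8.1) and Ager (105.3, against 60.3, 84.7 and 62.4) were also above every WT array there. Sftpd was below every WT array (62.4, against 174.5, 136.1 and 161.7), and Napsa lay within the WT range. With knockout arrays 1 and 2 both left out, 0 genes of the set passed in either direction in limma, in a fit that gives the single knockout array the spread of the WT arrays. On that remaining array the median difference from WT was 0.20 and 26 of 33 genes were positive. With the lung markers as a covariate, 1 gene of the set was higher (Add2) and 0 were lower. The covariate, the centred mean log2 value of the measured markers, was 2.37, 3.62 and -1.16 on knockout arrays 1, 2 and 3. On the WT arrays it was -1.64 to -1.56. It thus sets knockout arrays 1 and 2 apart, and that fit rests largely on knockout array 3 against WT. The lung covariate and knockout array 3 alone are therefore not separate checks.

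**Figure D1:**
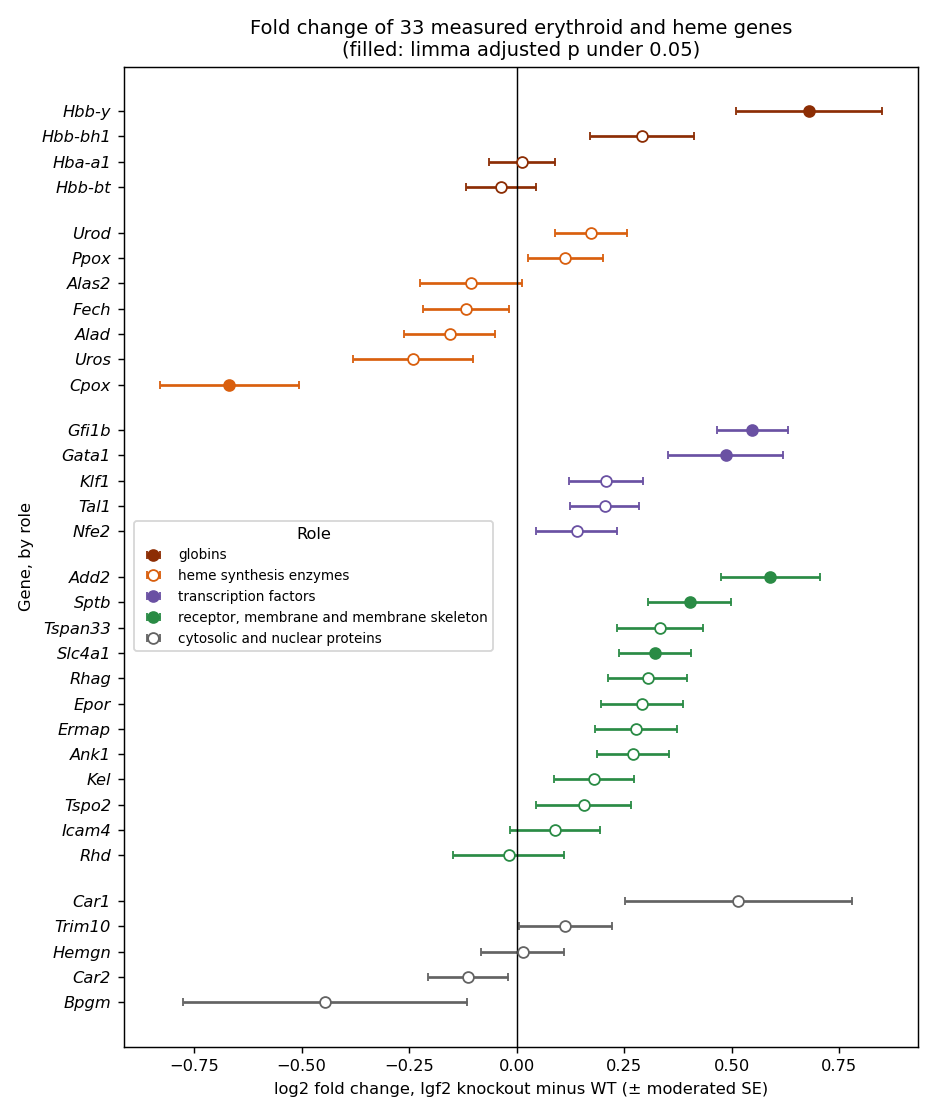
Log2 fold change of the 33 measured genes, Igf2 knockout minus WT, grouped by role, with moderated standard errors (3 arrays each); filled points have a limma adjusted p under 0.05. Transcription factors lie at 0.14 to 0.55 and membrane genes at -0.019 to 0.59, whereas 5 of 7 heme enzymes lie below 0.

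The promoters of the genes that passed the test are shown because erythroid transcription factors are known to bind near such starts. The sequences are the 250 bases before the RefSeq transcription start (build GRCm38.p6), 5′ to 3′ on the strand of the gene. Slc4a1 has no entry. Capitals mark the GATA word AGATAA, also with T as its first letter or G as its last, and the CACCC-type word CCNCNCCC, of the kind that KLF-family factors are known to bind, each on either strand. Marked GATA and CACCC-type words did not overlap each other in these windows.
Gfi1b promoter, chr2:28621983-28622232, minus strand: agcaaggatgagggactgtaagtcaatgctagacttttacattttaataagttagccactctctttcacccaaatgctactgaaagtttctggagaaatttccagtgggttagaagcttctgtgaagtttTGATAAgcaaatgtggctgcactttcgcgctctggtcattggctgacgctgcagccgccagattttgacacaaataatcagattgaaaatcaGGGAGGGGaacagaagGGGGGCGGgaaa
Gata1 promoter, chrX:7967911-7968160, minus strand: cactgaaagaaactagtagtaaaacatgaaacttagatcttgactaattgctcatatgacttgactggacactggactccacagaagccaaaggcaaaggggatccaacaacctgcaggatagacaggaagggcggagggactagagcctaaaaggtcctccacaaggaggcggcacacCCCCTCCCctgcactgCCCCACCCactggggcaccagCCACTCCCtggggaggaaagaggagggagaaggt
Add2 promoter, chr6:86028431-86028680, plus strand: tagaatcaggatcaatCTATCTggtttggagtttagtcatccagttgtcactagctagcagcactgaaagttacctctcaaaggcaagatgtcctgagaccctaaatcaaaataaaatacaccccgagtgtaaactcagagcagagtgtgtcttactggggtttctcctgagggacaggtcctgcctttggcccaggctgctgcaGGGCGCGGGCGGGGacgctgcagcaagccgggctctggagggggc
Sptb promoter, chr12:76710548-76710797, minus strand: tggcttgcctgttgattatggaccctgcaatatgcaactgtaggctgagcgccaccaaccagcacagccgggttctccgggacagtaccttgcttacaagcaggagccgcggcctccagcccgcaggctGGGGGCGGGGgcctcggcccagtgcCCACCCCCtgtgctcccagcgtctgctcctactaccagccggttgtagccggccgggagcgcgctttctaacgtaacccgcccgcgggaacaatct
Hbb-y promoter, chr7:103853208-103853457, minus strand: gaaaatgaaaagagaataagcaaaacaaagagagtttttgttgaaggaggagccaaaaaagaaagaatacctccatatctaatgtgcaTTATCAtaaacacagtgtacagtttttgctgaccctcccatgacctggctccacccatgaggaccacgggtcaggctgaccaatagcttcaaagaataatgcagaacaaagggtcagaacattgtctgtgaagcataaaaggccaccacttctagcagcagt
Cpox promoter, chr16:58669958-58670207, plus strand: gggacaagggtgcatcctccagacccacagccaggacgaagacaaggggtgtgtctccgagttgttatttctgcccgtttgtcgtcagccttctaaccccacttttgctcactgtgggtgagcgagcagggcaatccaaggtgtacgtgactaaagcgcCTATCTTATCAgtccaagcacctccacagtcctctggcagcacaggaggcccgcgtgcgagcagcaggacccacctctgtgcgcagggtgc

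A GATA word was found in the windows of 18 of the 27 genes of the set that have an entry (66.7%), against 29.7% of 27025 genes with an entry. Among the genes that rose, 3 of 5 held one, and the Cpox window held 2 overlapping ones, 91 and 86 bases before the start. The CACCC-type word was in 15 of the 27 windows (55.6%, against 48.5% of all genes), the E-box word CAGNTG in 11 (40.7%, against 48.2%) and the NF-E2 word TGAGTCA in 2 (7.4%, against 5.2%). These are matches of letters in a short window and say nothing of binding.

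Among the globins, the embryonic Hbb-y rose and the adult genes did not pass. Hbb-y encodes the epsilon-like chain of the first red cells of the yolk sac. Its brighter probe had intensities of 195, 145 and 182 on knockout arrays 1, 2 and 3, against 76.9, 116 and 118 on the WT arrays. Every knockout array was above every WT array, and Hbb-y rose by 0.68 ± 0.17 on the log2 scale (SE; limma adjusted p = 0.034). The second Hbb-y probe overlapped between groups (159, 98.7 and 163 in the knockout, 80.2, 122 and 102 in WT), with a change of 0.40 ± 0.20 (adjusted p = 0.21 over all probes). Leaving out knockout array 1, knockout array 3 or WT array 1 ended the Hbb-y call (highest adjusted p 0.118), and it did not pass with the mean of its probes, without the detection filter or with lung markers as a covariate (0.135). These levels were low, and the offset of 16 in the log scale shrinks such fold changes.

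Hbb-bh1, the other embryonic beta-like gene measured, had a dim probe at 26.4, 33.3 and 37.8 in the knockout, against 19.1, 25.8 and 25.6 in WT. Its change of 0.29 ± 0.12 did not pass (adjusted p = 0.137), and its second probe pointed the other way (-0.23 ± 0.17). Hba-x, the embryonic alpha-like gene, was at 62.4, 56.1 and 86.2 in the knockout and 44.2, 67.2 and 46.9 in WT (0.29 ± 0.17, adjusted p = 0.273), and the groups overlapped.

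The brightest adult globin probes sat at the top of the scale. The Hba-a1 probe, for adult alpha globin, read 28405.4 on 5 arrays and 27701.7 on WT array 1, and 28405.4 is the highest intensity on every array. The values had been normalized between arrays before deposit so that all arrays share 1 distribution, and a probe at the maximum cannot show a rise. The brightest of 4 probes of Hbb-bt, an adult beta-globin gene, read 26575.9, 24488.3 and 25775.0 in the knockout and 26263.0 on all 3 WT arrays. Its other probes, including the dimmest at 8333, 8658 and 7660 in the knockout and 10565, 10051 and 8026 in WT, overlapped between groups as well. The 4 Hbb-bt probes had log2 fold changes of -0.21 to -0.023, and all 4 had an adjusted p above 0.29. Of the 5 other globin genes measured, 0 passed. Hbb-bs had 6 named probes, and the brightest read 27701.7 on 5 arrays and the maximum of 28405.4 on WT array 1. That is too near the top of the scale to bear on a difference, and its other probes are not given here. Hbb-b2 was at -0.058 ± 0.14, and Hbq1b had the smallest p (0.26 ± 0.091, adjusted p = 0.0855). Beta-globin genes differ by haplotype between 129 and C57BL strains, and probes of such close copies may bind several of them.

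The heme synthesis enzymes did not move together. Of the 7 measured, 0 rose, 1 fell and 6 did not pass, where 8.23% of all genes rose and 8.49% fell. Their median log2 fold change was -0.12. Cpox, coproporphyrinogen oxidase, the first of the late mitochondrial steps, had intensities of 213, 144 and 154 on the knockout arrays, against 318, 238 and 278 on the WT arrays. The groups did not overlap, and Cpox fell by 0.67 on the log2 scale (SE 0.16; limma adjusted p = 0.0307). Its 2 other detected probes were also lower on every knockout array than on any WT array (-0.38 ± 0.15 and -0.14 ± 0.10) but did not pass on their own (adjusted p = 0.123 and 0.38). The Cpox call was lost without knockout array 2 or 3 or WT array 1 or 3 (adjusted p up to 0.101), with the lung covariate (0.178) and without the detection filter. On knockout array 3 alone the difference from WT was -0.78.

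Alas2, the erythroid aminolevulinate synthase that opens the pathway in red cell precursors, read 6908, 8397 and 8632 in the knockout and 8914, 9099 and 7707 in WT. The groups overlapped, and the change was -0.11 ± 0.12 (adjusted p = 0.57). Alad, which joins 2 aminolevulinate molecules into porphobilinogen, had -0.16 ± 0.10, and Uros, which closes the porphyrin ring, had -0.24 ± 0.14 (adjusted p = 0.336 and 0.267). All 3 Uros probes were negative (-0.27 to -0.17), and 2 of them were lower on every knockout array than on any WT array. Urod, uroporphyrinogen decarboxylase, was higher on every knockout array than on any WT array, at 9364, 10389 and 9781 in the knockout and 8658, 8658 and 8856 in WT, with 0.17 ± 0.083 (adjusted p = 0.192). Ppox and the last enzyme, ferrochelatase (Fech), had 0.11 ± 0.087 and -0.12 ± 0.099, and their probes disagreed in sign.

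**Figure D2:**
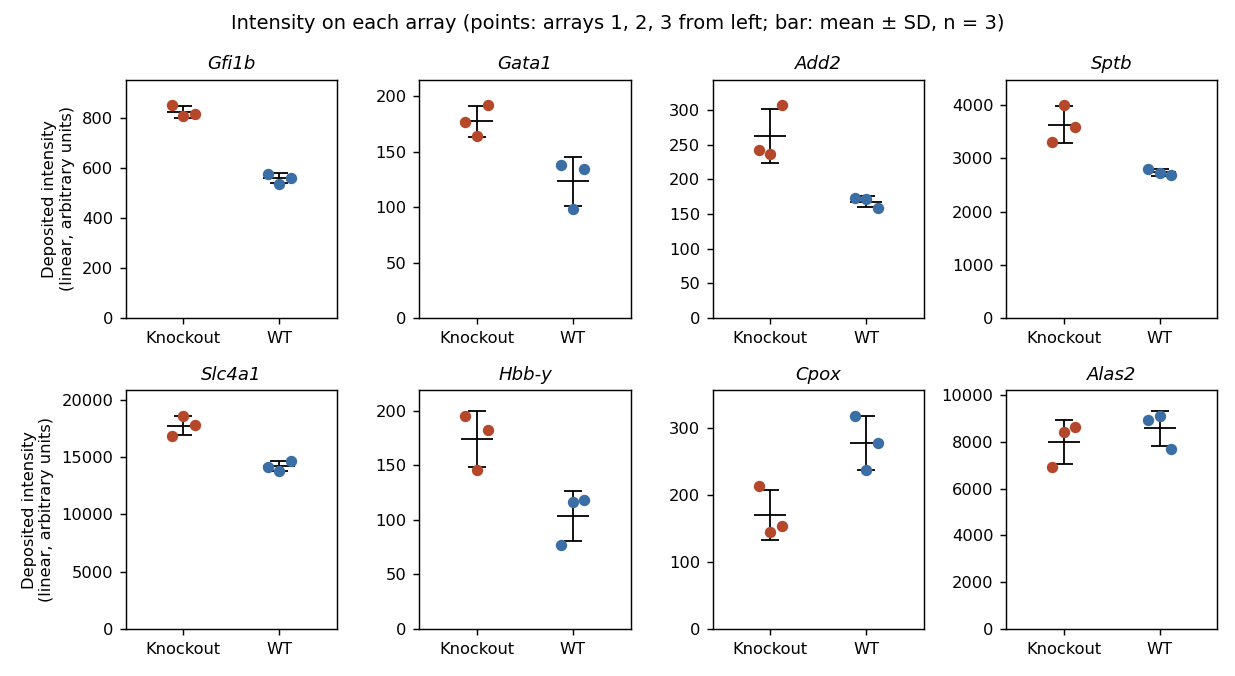
Deposited intensity (linear, arbitrary units) of 8 genes on each array, with the mean and SD of 3 arrays, knockout left and WT right. Gfi1b, Gata1, Add2, Sptb, Slc4a1 and Hbb-y lie higher on every knockout array, Cpox lies lower, and Alas2 overlaps.

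All 5 transcription factors measured had positive values, of 0.14 to 0.55 on the log2 scale. Of these 5, 2 rose, against 8.23% of all genes. Gfi1b, a zinc-finger repressor needed for red cell and platelet precursors, had 851, 806 and 816 on the knockout arrays, against 578, 537 and 561 on the WT arrays. The gap between groups was wide beside the spread within them. In log2 intensity Gfi1b averaged 9.71 ± 0.040 in the knockout and 9.17 ± 0.052 in WT (SD, n = 3 each). It rose by 0.55 ± 0.082 (SE), or 1.46-fold, with the smallest adjusted p of the set (0.00491, limma). Its second probe read 560.0, 557 and 532 in the knockout and 351, 348 and 359 in WT, and rose by 0.62 ± 0.086 (adjusted p = 0.00325 over all probes). Gfi1b passed whichever single array was left out (adjusted p up to 0.0319), with 0.52 to 0.57 in these fits. It missed the threshold with the lung covariate (0.54, adjusted p = 0.08). On knockout array 3 alone its difference from WT was 0.53.

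Gata1, the X-linked master regulator of red cell genes, depended on the probe. Its brighter probe read 177, 164 and 192 in the knockout and 138, 98.1 and 134 in WT, and rose by 0.49 ± 0.13 (adjusted p = 0.0456). Its other probe read 36.4, 30.1 and 35.6 in the knockout and 65.1, 32.9 and 38.9 in WT, with -0.27 ± 0.18 (adjusted p = 0.346). The Gata1 call was lost whichever of the 6 arrays was left out (adjusted p 0.0522 to 0.127), and the mean of both probes gave 0.11 with an adjusted p of 0.647. It was also lost without the filter or further background correction, and with either the sex or the lung covariate.

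Klf1, which activates the adult beta-globin gene, read 1986, 1994 and 2139 in the knockout and 1863, 1696 and 1734 in WT (0.21 ± 0.086, adjusted p = 0.136). Tal1, the partner of GATA1 in the core erythroid complex, read 1036, 1014 and 968 in the knockout and 855, 892 and 865 in WT (0.20 ± 0.081, adjusted p = 0.122). Both were higher on every knockout array than on any WT array, without passing. Nfe2, a subunit of the NF-E2 factor of red cells and platelets, overlapped (0.14 ± 0.094, adjusted p = 0.34).

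Genes of the receptor, membrane and membrane skeleton were 12 of the 33 measured genes and held 3 of the 7 calls. Of these 12, 3 rose, 0 fell and 9 did not pass, where 8.23% of all genes rose and 8.49% fell. The value was positive in 11 of the 12 genes, with a median log2 fold change of 0.28. For 8 of them every knockout array exceeded every WT array, against 20.8% of all genes. The summed intensity of the 12 probes was 30884, 34232 and 33278 on knockout arrays 1, 2 and 3 and 26724, 25830 and 26750 on the WT arrays.

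Add2, beta-adducin, which caps actin in the skeleton of the red cell membrane, read 243, 236 and 307 in the knockout and 173, 172 and 158 in WT. It rose by 0.59 ± 0.12, or 1.51-fold (limma adjusted p = 0.0142). A second probe read 222, 227 and 260 in the knockout and 173, 121 and 179 in WT and rose by 0.55 ± 0.15 (adjusted p = 0.0409 over all probes), while a dimmer one overlapped (0.17 ± 0.11). Add2 passed whichever single array was left out (adjusted p up to 0.0465). With the lung covariate its change was 0.84 (adjusted p = 0.0251), and knockout array 3 alone gave 0.81, short of the threshold (adjusted p = 0.0606).

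Sptb, beta-spectrin, read 3312, 3996 and 3593 in the knockout and 2808, 2728 and 2681 in WT, and rose by 0.40 ± 0.097 (adjusted p = 0.0297). Slc4a1, band 3, the chloride and bicarbonate exchanger to which the skeleton is anchored, read 16861, 18575 and 17782 in the knockout and 14101, 13797 and 14655 in WT. Slc4a1 rose by 0.32 ± 0.084, or 1.25-fold (adjusted p = 0.0392). Neither gene overlapped between groups on its brightest probe, but both calls were lost easily. The dimmer Sptb probes had 0.19 ± 0.12, with overlap, and 0.32 ± 0.15, without it (limma adjusted p = 0.303 and 0.189 over all probes). Sptb missed the threshold whichever of the 6 arrays was left out (adjusted p 0.0508 to 0.0761). Slc4a1 missed it in each omission but that of WT array 3, with adjusted p values of at most 0.106. Both missed it with the sex and lung covariates. The differences on knockout array 3 alone were 0.39 for Sptb and 0.33 for Slc4a1.

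For 5 further membrane genes the groups did not overlap on the brightest probe, and the call depended on the variance model, the array weights or the probe rule. Rhag, the Rh-associated glycoprotein, read 1530, 1686 and 1542 in the knockout and 1319, 1337 and 1190 in WT, with 0.30 ± 0.092 (adjusted p = 0.0599). Its 3 probes all separated the groups, with 0.30 to 0.34, and the mean of the 3 passed. Tspan33, a tetraspanin of red cell precursors, had 0.33 ± 0.10 and Ank1, ankyrin, which ties spectrin to band 3, had 0.27 ± 0.084 (adjusted p = 0.0604 and 0.066). Epor, the erythropoietin receptor, read 554, 510 and 580 in the knockout and 411, 472 and 452 in WT (0.29 ± 0.095, adjusted p = 0.0747). Ermap, which carries the Scianna blood group in humans, had 0.28 ± 0.095 (adjusted p = 0.0842). For these 5 genes the lowest knockout value of the brightest probe exceeded the highest WT value. The dimmer probes of Ank1 (0.11 ± 0.13) and Ermap (-0.10 ± 0.14) overlapped between groups, and that of Ermap had the opposite sign. Rhag, Tspan33, Ank1 and Ermap passed with limma's trended and robust variance (adjusted p 0.0294, 0.0288, 0.0385 and 0.0391), and Epor passed with array weights (0.0243).

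Other membrane genes overlapped between groups. Kel, the Kell blood group protease, had 0.18 ± 0.093, Tspo2, a translocator protein of erythroid cells, had 0.16 ± 0.11, and Icam4, an adhesion molecule of erythroblasts, had 0.089 ± 0.10. Rhd, the Rh blood group gene, was dim and overlapped (54.8, 57.5 and 73.4 in the knockout, 67.1, 52.6 and 68.9 in WT, -0.019 ± 0.13).

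**Figure D3:**
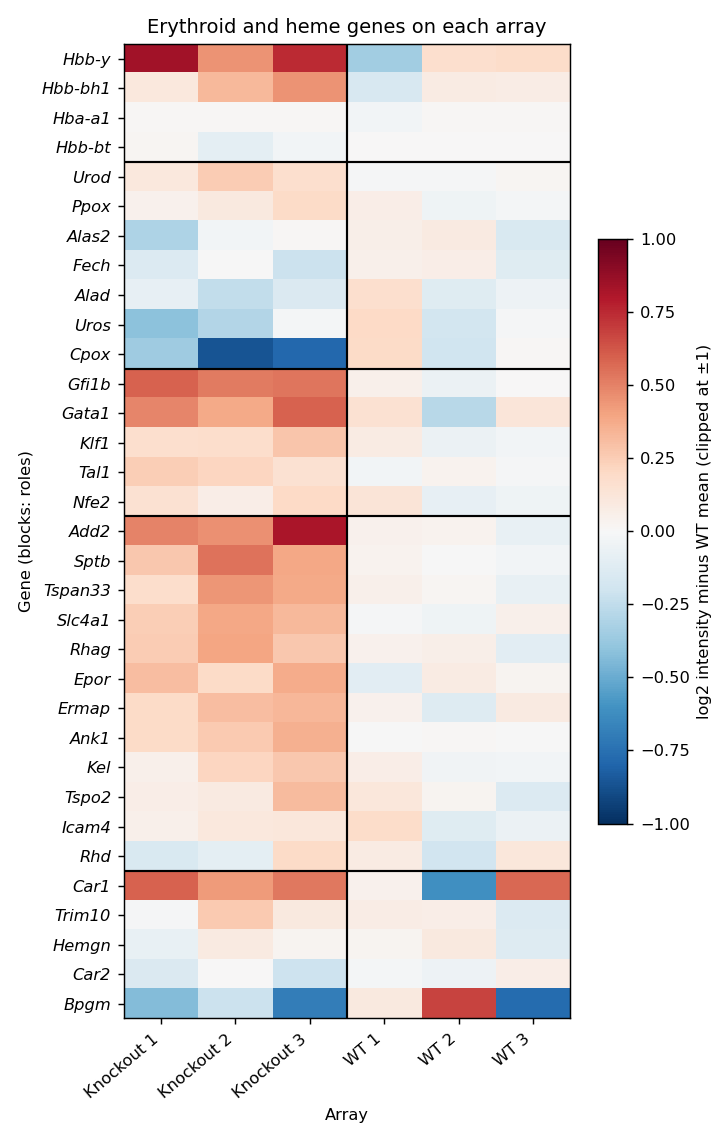
Log2 intensity of the 33 genes on each array, as the difference from the mean of the WT arrays (colour, clipped at 1 on either side), with knockout columns left and horizontal lines between roles. Membrane genes and transcription factors are positive on most knockout arrays, and Car1 and Bpgm spread widely among the WT arrays.

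Of the 5 measured cytosolic and nuclear genes, 0 passed in limma, and 0 had an unadjusted p under 0.05. Car1, a carbonic anhydrase of maturing red cells, read 1688, 1503 and 1615 in the knockout, against 1148, 723 and 1667 in WT. The knockout arrays were close together while WT array 2 was the lowest of the 6, and the change was 0.52 ± 0.26 (adjusted p = 0.214). Bpgm, which makes the bisphosphoglycerate that lowers the oxygen affinity of hemoglobin, read 103, 123 and 83.6 in the knockout and 156, 240 and 78.2 in WT (-0.45 ± 0.33, adjusted p = 0.382). These were the 2 genes with a within-group SD over 0.3, against a median of 0.0986 over the set. Both depended on WT array 3. Without it Car1 was at 0.80 (adjusted p = 0.0369) and Bpgm at -0.83 (adjusted p = 0.0426). Car2, Trim10, a ring-finger protein of red cell maturation, and Hemgn, a nuclear protein of hematopoietic cells, had -0.11 ± 0.093, 0.11 ± 0.11 and 0.013 ± 0.096. The dimmer Car2 probe pointed the other way (0.34 ± 0.13). It was higher on every knockout array than on any WT array, without passing (limma adjusted p = 0.1175 over all probes).

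Probes of one gene did not always move alike. Of 59 detected probes, 8 rose and 1 fell, where over all detected probes 6.72% rose and 9.27% fell. Among 26 probes beside the one that stood for its gene, 19 had the same sign. For the 7 genes that passed, 8 of 9 such probes had the same sign and 2 passed themselves, those of Gfi1b and Add2. The probe of opposite sign was that of Gata1.

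Other genes of red cell precursors had at most 2 calls in each list. Of 18 other red cell membrane and enzyme genes, 1 rose and 1 fell (8.23% and 8.49% of all genes), with a median of 0.23. For 9 of the 18 every knockout array exceeded every WT array, and for 2 the reverse held (20.8% and 18.3% of all genes). Ctse, cathepsin E, an aspartic protease, read 11851, 11936 and 13996 in the knockout, against 5621, 5666 and 6980 in WT. It rose by 1.05 ± 0.12, or 2.07-fold (limma adjusted p = 0.0018), and passed whichever single array was left out (up to 0.0109) and on knockout array 3 alone (1.21, adjusted p = 0.0416), but not with the mean of its probes (0.0642). Slc14a1, a urea transporter, fell by 0.43 (SE 0.089, adjusted p = 0.0183), a call lost without knockout array 1 or 3 or WT array 1 and with either covariate (adjusted p up to 0.127).

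Of 13 genes of heme and iron handling, 1 rose and 1 fell (8.23% and 8.49% of all genes), with a median of 0.18. Alas1, the aminolevulinate synthase of all tissues and of hepatocytes, read 5780, 5202 and 6552 in the knockout, against 3397, 3392 and 4536 in WT. Alas1 rose by 0.64 ± 0.14 (adjusted p = 0.0248), while its erythroid counterpart Alas2 was at -0.11; the difference between them was not tested. Steap3, an endosomal iron reductase, read 391, 432 and 399 in the knockout and 613, 571 and 767 in WT and fell by 0.65 (SE 0.12, adjusted p = 0.0129). Alas1 lost its call without knockout array 1 or 3 or WT array 1 or 2 (highest adjusted p 0.0871), and Steap3 without knockout array 1 (0.0597) and with the mean of its probes, and both did with the lung covariate. Tfrc, the transferrin receptor through which red cell precursors take up iron, had 0.33 ± 0.095 (adjusted p = 0.0517).

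Among 8 genes of heme breakdown and scavenging, 1 rose and 0 fell, where 8.23% of all genes rose and 8.49% fell. Hmox1, heme oxygenase, read 1586, 1501 and 1608 in the knockout and 1303, 1245 and 1265 in WT (0.30 ± 0.081, adjusted p = 0.0449), a call lost whichever of the 6 arrays was left out (adjusted p up to 0.143). Of 15 other transcription regulators, E2f2 rose (0.35 ± 0.099, adjusted p = 0.0495) and Myb fell by 0.56 (SE 0.10, adjusted p = 0.0112). MYB is a factor of early progenitors, and its probe read 41.8, 35.5 and 40.3 in the knockout and 72.2, 66.3 and 57.2 in WT. Myb passed whichever single array was left out (up to 0.0443), whereas the E2f2 call was lost whichever of the 6 arrays was left out (up to 0.144). Myb missed the threshold with the lung covariate (0.153).

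Among 8 measured genes of erythropoietin signalling, 1 rose and 0 fell (8.23% and 8.49% of all genes), with a median of 0.013. Erfe, erythroferrone, a hormone that erythroblasts release under erythropoietin and that lowers hepcidin, read 87.1, 92.7 and 77.0 in the knockout, against 31.1, 26.8 and 43.5 in WT. Erfe rose by 1.04 ± 0.14 on the log2 scale (adjusted p = 0.00287) and passed whichever single array was left out (up to 0.0187). It missed the threshold with the lung covariate (0.0611). On knockout array 3 alone its difference from WT was 0.92. The Epo probe was detected on 0 of 6 arrays.

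Markers of other blood cells had medians below 0. Megakaryocyte markers, which share Gata1, Gfi1b, Tal1 and Nfe2 with red cells, had 0 of 9 measured genes higher and 0 lower, and a median of -0.024. Their summed intensity was 11078 to 12407 on the knockout arrays and 11616 to 15428 on the WT arrays. Itga2b had the smallest p of them (0.33 ± 0.15, adjusted p = 0.159), and Pf4, the brightest, was at -0.21 ± 0.12. Of 6 mast cell and basophil markers 0 passed, with all 6 values below 0 (Cma1, with the smallest p, -0.24 ± 0.12, and Cpa3, the brightest, -0.15 ± 0.15) and sums of 248 to 325 in the knockout and 322 to 436 in WT.

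Of 10 neutrophil markers, 0 rose and 1 fell, where 8.23% of all genes rose and 8.49% fell. Of these 10, 6 were lower on every knockout array than on any WT array, against 18.3% of all genes. Ctsg, cathepsin G, fell by 0.36 (SE 0.090, adjusted p = 0.0338), a call lost whichever of the 6 arrays was left out (up to 0.0973), and S100a8, the brightest, was at 0.015 ± 0.079. The neutrophil sum was 62044 to 64627 in the knockout and 65802 to 70839 in WT. The 5 measured B cell precursor markers had a median of -0.46. Their sums were 1920 to 2142 in the knockout and 2342 to 2764 in WT. Of these 5 markers, 3 fell, against 8.49% of all genes. They were Vpreb1 (-0.51 ± 0.087, adjusted p = 0.00828), Igll1 (-0.46 ± 0.12, adjusted p = 0.0362) and Ebf1 (-0.50 ± 0.13, adjusted p = 0.0421), with Cd79b the brightest (-0.17 ± 0.11). Vpreb1 passed whichever single array was left out (up to 0.0378), but not with the lung covariate (0.154). On knockout array 3 alone its difference from WT was -0.44. Igll1 did not pass without knockout array 1 or 3 or any one WT array (up to 0.113), and Ebf1 did not without knockout array 1 or 3 or WT array 1 or 2 (up to 0.138). With the lung covariate their adjusted p was 0.263 for Igll1 and 0.0894 for Ebf1. Pax5 was detected on 0 of 6 arrays. The part of these cells in the erythroid values was not tested.

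Of 8 macrophage markers 0 passed (median -0.063, sums of 8051 to 8993 in the knockout and 7883 to 10419 in WT). Csf1r was at -0.32 ± 0.12 (limma adjusted p = 0.0929) and C1qc, the brightest, at -0.0089 ± 0.11. For 2 of the 8 every knockout array was below every WT array, against 18.3% of all genes. All 10 hepatocyte markers were detected on all 6 arrays and 0 passed, with a median of -0.070. Their sums were 129200 to 132496 in the knockout and 134846 to 138094 in WT. For 4 of the 10 every knockout array was below every WT array, against 18.3% of all genes. Serpina1a had the smallest p (-0.45 ± 0.13, limma adjusted p = 0.0543), and Ahsg, the brightest, was at 0.0084 ± 0.079. Ahsg read 25503 to 26263 in the knockout and 25503 to 26576 in WT, near the top of the scale. The limit given for the adult globin probes holds there too, and such bright probes make up much of the hepatocyte sums. Of 11 cell division genes 0 passed (median 0.041), and Rrm2 had the smallest p (0.46 ± 0.14, adjusted p = 0.0672). Of 4 sex chromosome genes, the Y-linked Kdm5d fell by 0.71 (SE 0.15, adjusted p = 0.0199), a call lost without knockout array 1 or 2 or WT array 2 and with the lung covariate. Xist, expressed from an inactive X chromosome, read 1984, 1823 and 17.9 on knockout arrays 1, 2 and 3 and 1018, 4.1 and 5.4 on the WT arrays. Xist was thus high on knockout arrays 1 and 2 and on WT array 1. The Y-linked Eif2s3y was detected on all 6 arrays. It read 685, 619 and 1055 on knockout arrays 1, 2 and 3 and 887, 925 and 1085 on the WT arrays. The 3 arrays with high Xist thus carried Y-linked transcripts as well, and these genes do not sort the arrays into male and female. Whether an array holds RNA of both sexes was not tested. With the sex chromosome genes as a covariate, 3 genes of the erythroid set were higher and 1 lower. This sex covariate was the centred mean log2 value of the Y-linked genes minus that of Xist. It was -3.74, -3.57 and 2.70 on knockout arrays 1, 2 and 3 and -2.19, 3.38 and 3.41 on the WT arrays. It thus mainly sets the arrays with high Xist apart and is not a measure of the sex of the pups. Some lists had 0 genes past the adjusted threshold in limma. Of these, the other globins had 1 gene at an unadjusted p under 0.05, and megakaryocyte and mast cell markers had 0. Macrophage and hepatocyte markers had 2 each, and cell division genes had 1. Over all genes 16.7% passed the adjusted threshold, so at least that share had an unadjusted p under 0.05.

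**Figure D4:**
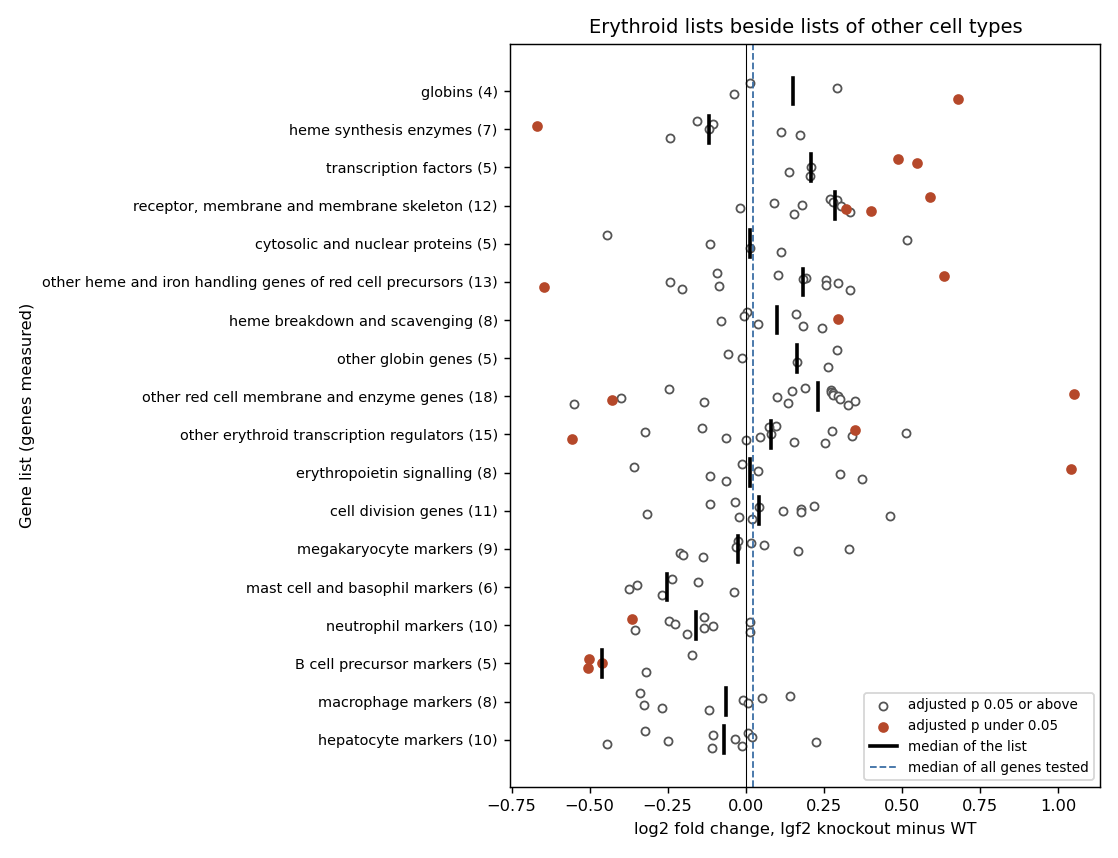
Log2 fold change, Igf2 knockout minus WT, of each measured gene in the erythroid and heme roles and in lists of other functions and cell types; the black bar is the median of a list, the dashed line that of all genes (0.022), and filled points have a limma adjusted p under 0.05. The medians of transcription factors (0.21) and membrane genes (0.28) lie to the right of the dashed line, and those of neutrophil (-0.16) and B cell precursor markers (-0.46) to its left.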

How the data were processed

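The 6 arrays, 3 Igf2 knockout and 3 WT by the labels, were compared. The authors deposited 2 tables with the same probe intensity values, 1 of them with detection p-values; the deposited detection p-value gives, per probe and array, how bright the probe is beside negative controls. The intensity table is named as not normalized, but 25.0% to 25.1% of its values are below 0 and the sorted values of any 2 arrays differ by at most 0.2. The software behind it is not given in the sources used here. Probes were named from the platform annotation, and 34807 of them took the RefSeq symbol of their gene ID, whether or not it differed. The 2 deposited tables were joined by their 6 intensities because the IDs of 9535 rows differ.

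Limma's neqc (version 3.58.1, R 4.3.3) fitted the negative controls from the detection p-values, corrected background, added 16, quantile-normalized and took log2. Kept were the 21958 probes detected on 3 or more arrays (p under 0.05), and the brightest kept probe stood for each of 11346 genes. Groups were compared with limma (lmFit, eBayes, two-sided, Benjamini-Hochberg over all genes, adjusted p under 0.05), and single probes likewise over all kept probes. Errors of fold changes are moderated standard errors. This fit was chosen when the values were thought to be raw, and it was retained. It was tested on simulated data. The number of arrays limits the precision.

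The 36 genes, the other lists, the named genes (all 36, and in each list the changed genes with the smallest p, or the 1 with the smallest p, and in marker lists the brightest) and the alternatives were chosen with earlier results of these data known. Hba-x, Hbb-bs, Hbb-b2, Tfrc and single lung markers were named after their values were seen. Alternatives were the background correction, the filter, the probe rule, the variance model, array weights, a replicate block, sex and lung covariates and omitted arrays. Motifs were searched in RefSeq promoter windows.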

Additional observations from a re-analysis of the deposited data

How the results depend on the processing

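Against 6 higher and 1 lower, 10 were higher with limma's trended and robust variance, 3 with the sex covariate, and 1 with the lung covariate, where 0 were lower. Without the detection filter 0 were lower, and with knockout arrays 1 and 2 both left out 0 were higher and 0 lower. With 1 array left out, 2 to 5 were higher and 0 to 1 lower (without WT array 3 the lower one was Bpgm, not Cpox). Over all genes, 934 were higher and 963 lower. These counts were 1591 higher with array weights, 571 and 585 with the sex covariate, 226 and 219 with the lung covariate, 116 and 112 without knockout arrays 1 and 2, and 391 to 953 and 458 to 927 with 1 array left out. The cause of these shifts was not tested. The replicate numbers in the titles are not known to pair arrays, and deviations of same-numbered arrays correlated at -0.0044, 0.028 and 0.015. With the replicate block 3 of the 33 genes were higher and 1 lower. The median log2 fold change of the set ranged from 0.11 (mean of the probes, array weights) to 0.21 (lung covariate). None of the 7 changed genes changed sign in any of the 17 alternatives. The intensity ceiling limits what the adult globin probes can show, and the log offset limits the dim ones.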
